A study of Mus musculus with 4 samples.

Results

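Genes that build fatty acids and triglycerides were followed in C3H10T1/2 cells, a mouse mesenchymal stem cell (MSC) line, with and without 5-AZA. The 10 members were Acly, Me1, Acaca, Fasn, Elovl6, Scd1, Scd2, Gpam, Dgat1 and Dgat2, chosen by name, and they make up 10 of the 21878 genes with deposited mRNA values. All RefSeq transcripts of a gene were summed. The untreated group held replicates 1 and 2, for which no culture time is listed. Effects of 5-AZA and of time in culture therefore cannot be told apart. The 5-AZA group held replicates 101 and 102, exposed to 20 μmol/L for 72 hours and then kept for 21 days without the drug. 5-AZA, or 5-azacytidine, is a cytidine analogue that is built into nucleic acids and lowers DNA methylation. Both groups came from the same line, and nothing in the labels says that the replicates were separate cultures, so p-values measure only the spread between these samples. Ribosomal RNA was removed from total RNA and stranded libraries were sequenced. Levels are given in FPKM, fragments scaled to transcript length and to sequenced fragments. These values hold no counts, and the depth behind each one is unknown.

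Fatty acids are made in the cytosol from citrate that leaves the mitochondria. Acly, ATP citrate lyase, splits citrate into acetyl-CoA, and acetyl-CoA carboxylase, encoded by Acaca, turns acetyl-CoA into malonyl-CoA. Fasn, fatty acid synthase, joins these units into palmitate with NADPH, part of which comes from malic enzyme, encoded by Me1. Elovl6 lengthens palmitate, and the stearoyl-CoA desaturases Scd1 and Scd2 introduce the double bond of oleate and palmitoleate. Gpam, a mitochondrial glycerol-3-phosphate acyltransferase, starts glycerolipid synthesis, and Dgat1 and Dgat2 attach the last acyl chain of triglyceride. The pathway is most active in liver and fat, and many of its genes are known targets of the transcription factor SREBP-1c, a product of Srebf1.

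After 5-AZA, 6 of the 10 genes rose, Scd2 fell, and Acly, Acaca and Elovl6 did not pass the test. Scd1 showed the widest difference, with 40.7 ± 7.44 FPKM untreated and 254 ± 42.1 FPKM after 5-AZA (SD, n = 2 per group), a 6.25-fold ratio. Here a gene that rose or fell had an adjusted p below 0.05 at any fold (limma on log2(FPKM + 0.1), adjusted over the 13199 genes with a mean of at least 0.1 FPKM). By this rule, which was added after the data were seen, 18.6% of all tested genes rose and 5.93% fell. A gene was called where it was also over 2-fold apart. Of the members 3 were called higher, Scd1, Me1 and Dgat2, and 0 lower, against 13.1% and 1.32% of all genes. All 10 passed the limit on low values. Without 5-AZA replicate 101, 2 of the 10 rose and 0 fell, and without replicate 102, 0 rose and 0 fell. Their median log2 change was 0.62, and that of all tested genes 0.05. The values of the groups did not overlap in 6 members that were higher and 3 that were lower, against 36.8% and 25.4% of all genes.

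**Figure D1:**
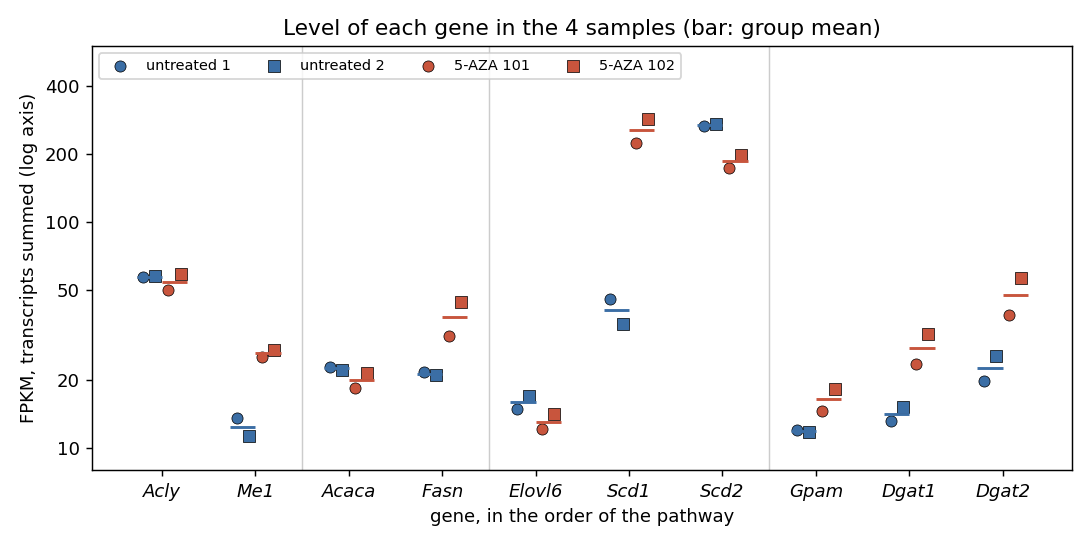
Level of each of the 10 genes in each sample, in FPKM on a log axis, with genes in the order of the pathway, untreated samples in blue, 5-AZA samples in red and bars at group means. Scd1 in the 5-AZA samples, at 224 and 284 FPKM, stands far above the untreated samples, and Scd2 lies lower in both 5-AZA samples.

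**Figure D2:**
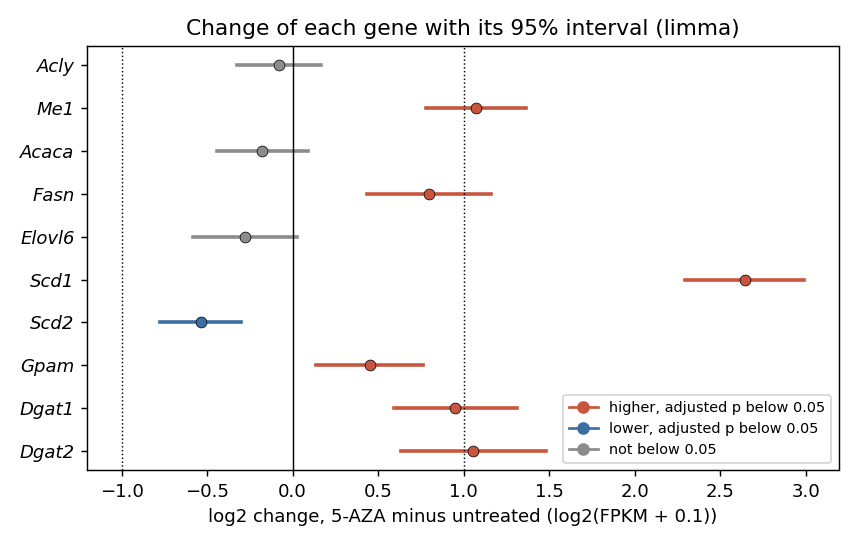
Log2 change of each gene, 5-AZA minus untreated, with its 95% interval from limma. Dotted lines mark 2-fold changes. Intervals of Me1, Fasn, Scd1, Gpam, Dgat1 and Dgat2 lie above 0, that of Scd2 lies below 0, and those of Acly, Acaca and Elovl6 reach across it.

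Across the samples, 5-AZA replicate 102 was above replicate 101 in all 10 members. The FPKM sums of these libraries over all mRNAs were 361660 and 328410, and those of the untreated replicates 343960 and 334570. Pearson's r over the log2 values of tested genes was 0.991 for the untreated replicates, 0.985 for the treated ones and 0.903 to 0.913 across groups, where genes are not independent replicates. The part of the library difference in the members' spread was not tested. Over all genes 1724 were called higher and 174 lower, so 90.8% of the calls were higher, and this share was 54.0% after quantile normalization.

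The cells differed in their markers. Over all tested genes, 18.6% rose, 5.93% fell and 13.1% were called higher. The summed level of 17 adipocyte markers was 54.2 and 37.8 FPKM in the untreated and 1274 and 1759 FPKM in the 5-AZA samples. All 16 tested markers rose, 9 of them without 5-AZA replicate 101 and 8 without replicate 102, and Lep was at or near 0 in every sample. Cidec, Car3 and Retn had the largest changes among the called markers (7.12, 6.89 and 6.83 on the log2 scale). Adipoq, Fabp4 and Plin1 changed by 4.89, 6.10 and 6.79. Pparg, the master regulator of fat cells, was measured at 13.8 and 15.9 FPKM without and at 22.2 and 36.0 FPKM with 5-AZA. The summed level of 10 skeletal muscle markers, all called higher, was 1.63 and 1.30 against 814 and 1248 FPKM, led by Mylpf, Acta1 and Tnni2 (9.79, 9.29 and 8.74). Mesenchymal markers remained high, with sums of 4238 and 4303 FPKM untreated and 3421 and 3750 FPKM after 5-AZA. Of this list 5 of 10 rose, Thy1 the most (3.98), and 4 fell, Vim among the latter. Immune markers summed to 2.13 and 3.20 against 3.27 and 5.20 FPKM, with Adgre1 and Cd3e at 0. Of the 2 tested immune markers Cd68 was called higher, from 1.16 and 1.47 to 2.27 and 3.69 FPKM (1.09, adjusted p = 0.0191, limma). Epithelial markers summed to 0.967 and 0.877 against 19.9 and 25.5 FPKM, the latter mostly Krt8 and Krt18. Of 5 tested epithelial markers 3 were called higher and 0 fell. Cdh1 was lower, at 0.500 and 0.497 FPKM untreated and 0.157 and 0.367 FPKM after 5-AZA, and did not pass (adjusted p = 0.174, limma). Endothelial sums were 0.662 and 0.456 against 1.88 and 1.90 FPKM, with Kdr at 0 and Tek and Cdh5 called higher of 4 tested (1.59 and 2.05), and no hepatocyte marker passed the limit on low values. In bulk RNA, a change in the number of cells of a type and a change in RNA per cell cannot be told apart. The part of these markers in the members' differences was not tested.

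The supply step was split. Acly (chr11:100476352-100528000) was at 57.0 and 57.8 FPKM untreated and at 50.1 and 58.8 FPKM after 5-AZA. The groups overlapped, and the log2 change was -0.08 (standard error 0.11, 95% interval -0.33 to 0.17, adjusted p = 0.654, limma). Its 2 transcripts both contributed, NM_134037.3 with 61.8 to 71.1% of the level in each sample.

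Me1 (chr9:86581363-86695914) was at 13.6 and 11.3 FPKM untreated and at 25.4 and 27.1 FPKM after 5-AZA. Both treated samples lay above both untreated ones, with a log2 change of 1.07 (standard error 0.13, adjusted p = 3.68e-04, limma). NM_008615.2, its main transcript, held 6.89, 6.08, 14.4 and 22.3 FPKM in untreated replicates 1 and 2 and 5-AZA replicates 101 and 102. Tested by transcript it was called higher, by 1.46 (adjusted p = 0.0487, limma), as was the only transcript of Scd1. These were 2 of the members' 27 transcripts, all tested, where 2.1% of all transcripts were called higher and 0.262% lower. The predicted XM_011242666.2 was at 6.39, 5.10, 10.8 and 4.68 FPKM, so the share of the main transcript was 82.2% in replicate 102 and 50.5 to 56.9% in the others. Reads in shared exons can be divided differently among transcripts. The Me1 sum was close to 2-fold, and its call was lost after median centring (0.97), after quantile normalization (0.999) and without untreated replicate 2 (0.94). Without 5-AZA replicate 101 or 102 the adjusted p was 0.0908 and 0.107 (limma).

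The committed step and chain building also differed. Acaca (chr11:84129635-84401651) was at 22.9 and 22.2 FPKM untreated and at 18.5 and 21.5 FPKM after 5-AZA. Both 5-AZA values were lower, by less than the test resolved, with a log2 change of -0.18 (95% interval -0.44 to 0.09, adjusted p = 0.326, limma). After median centring it passed (-0.28, adjusted p = 0.0406, limma). Acaca had 9 transcripts, and the highest, XM_006531957.3, held 27.5 to 35.4% of its level in each sample. Acacb, the mitochondrial form of the carboxylase, was at 0.778, 0.648, 0.966 and 0.966 FPKM, and Acaca made up 95.04 to 97.2% of their sum.

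Fasn (chr11:120805958-120825166) was at 21.7 and 21.1 FPKM untreated and at 31.2 and 44.5 FPKM after 5-AZA. The groups did not overlap, and Fasn rose by less than 2-fold, with a log2 change of 0.80 (standard error 0.16, adjusted p = 0.00659, limma). Without 5-AZA replicate 102 the change was 0.54 (adjusted p = 0.0692, limma), and without replicate 101 it was 1.05 and was called. The adjusted p was 0.138 with no limit on low values and 0.0647 without the trend (limma). Fasn was 48.8 and 48.7% of the summed FPKM of Fasn and Acaca in the untreated samples and 62.8 and 67.4% in the 5-AZA samples.

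Elovl6 (chr3:129532386-129638495) was at 14.8 and 17.1 FPKM untreated and at 12.1 and 14.1 FPKM after 5-AZA. The treated values lay just below the untreated ones, and the log2 change of -0.28 did not pass (95% interval -0.58 to 0.02, adjusted p = 0.171, limma).

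The DNA before the starts of these genes is shown because 5-AZA acts on cytosine methylation, most of which lies at CpG. The sequences are RefSeq's, build GRCm38.p6, of the 250 bases before a start, in lower case with each CpG in capitals. Windows were at hand for 6 members, and 4 are printed, Fasn and Me1, which rose, and Acly and Elovl6, which did not pass. Gpam, which rose, and Acaca, which did not pass, are not printed. Scd1, Scd2, Dgat1 and Dgat2 had no window. Thrsp is added as an example, and no other gene outside the members had its window described. Thrsp encodes Spot 14, a factor that promotes lipogenesis, and went from 0.0787 and 0.0239 FPKM to 11.5 and 14.4 FPKM. The windows lie at chr11:120824548-120824797 (minus strand, Fasn), chr9:86695915-86696164 (minus, Me1), chr11:100528001-100528250 (minus, Acly), chr3:129532136-129532385 (plus, Elovl6) and chr7:97417551-97417800 (minus, Thrsp).
Fasn: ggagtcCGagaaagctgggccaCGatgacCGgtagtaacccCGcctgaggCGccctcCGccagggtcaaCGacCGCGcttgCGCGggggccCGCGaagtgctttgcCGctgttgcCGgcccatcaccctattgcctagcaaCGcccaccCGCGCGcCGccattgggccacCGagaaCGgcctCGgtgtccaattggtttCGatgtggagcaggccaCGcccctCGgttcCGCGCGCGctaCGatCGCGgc
Me1: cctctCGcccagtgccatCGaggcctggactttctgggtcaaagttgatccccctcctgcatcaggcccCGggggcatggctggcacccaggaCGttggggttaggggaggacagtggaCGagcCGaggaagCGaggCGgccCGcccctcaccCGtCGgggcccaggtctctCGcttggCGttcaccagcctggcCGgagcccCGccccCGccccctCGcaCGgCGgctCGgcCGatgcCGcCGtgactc
Acly: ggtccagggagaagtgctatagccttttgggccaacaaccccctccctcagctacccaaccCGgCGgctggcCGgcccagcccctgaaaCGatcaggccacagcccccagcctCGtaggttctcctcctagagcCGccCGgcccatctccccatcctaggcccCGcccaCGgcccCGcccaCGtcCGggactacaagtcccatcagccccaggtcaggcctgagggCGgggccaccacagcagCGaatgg
Elovl6: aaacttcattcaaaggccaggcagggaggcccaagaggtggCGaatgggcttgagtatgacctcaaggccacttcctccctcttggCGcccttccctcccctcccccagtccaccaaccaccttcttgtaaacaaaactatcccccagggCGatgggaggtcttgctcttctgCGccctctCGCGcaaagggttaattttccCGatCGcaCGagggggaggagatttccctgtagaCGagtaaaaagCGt
Thrsp: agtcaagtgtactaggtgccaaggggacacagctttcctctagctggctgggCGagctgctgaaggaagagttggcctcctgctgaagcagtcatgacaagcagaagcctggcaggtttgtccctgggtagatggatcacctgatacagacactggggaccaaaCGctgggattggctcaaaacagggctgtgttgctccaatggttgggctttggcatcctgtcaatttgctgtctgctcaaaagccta

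The Fasn window held 33 CpGs and the printed Me1 window 23, more than 96.0% and 86.7% of the 32851 windows of this length. Acly had 14, Elovl6 11 and Thrsp 2. Of the windows not printed, another start of Me1 had 2, the 2 starts of Gpam 7 and 21, and the only start listed for Acaca 0. That Acaca window (chr11:84195188-84195437) lies inside the gene, as do the Me1 window with 2 and the Gpam window with 21. No window at the outer start of Acaca was at hand. The median of all windows was 6 (quartiles 2 and 16). The letters CCAAT, bound by NF-Y among others, occurred 3 times in the Fasn window and 2 times in that of Thrsp, counting both strands, and in 33.8% of all windows. GGGCGG, which Sp1 binds, occurred 3 times before Me1 and 4 times before Acly and in 32.7% of all windows. None of these 5 windows held CACGTG, which USF factors bind (6.02% of all windows), or TCACNCCAC, a sterol response element (1.05%), on either strand. Such matches and CpG counts are descriptions of the letters only. Their link to the changes was not tested, and methylation was not measured here. The RefSeq interval of Fasn reaches past its window, so another transcript starts upstream.

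The desaturase pair moved in opposite directions. Scd1 (chr19:44394450-44407709) was at 45.9 and 35.4 FPKM untreated and at 224 and 284 FPKM after 5-AZA. The lower treated sample lay far above the higher untreated one, and Scd1 rose by 2.64 on the log2 scale (standard error 0.15, 95% interval 2.29 to 2.99, adjusted p = 5.96e-06, limma). Without 5-AZA replicate 102 the change was 2.47 with an adjusted p of 0.0603 (limma).

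Scd2 (chr19:44293676-44306864), on the same chromosome, was at 267 and 270 FPKM untreated and at 173 and 198 FPKM after 5-AZA. Scd2 fell by 0.54 on the log2 scale without overlap (standard error 0.10, 95% interval -0.77 to -0.30, adjusted p = 0.00562, limma). Its adjusted p was 0.0692 and 0.0512 without 5-AZA replicate 101 and 102, 0.0718 with no limit on low values and 0.0609 without trend (limma).

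Scd1 was thus 14.7 and 11.6% of the summed FPKM of both desaturases in the untreated samples and 56.5 and 58.9% in the 5-AZA samples, while the sum went from 313 and 305 to 397 and 482 FPKM. Scd2 ranked first of the 10 genes in the untreated samples and Scd1 first in the 5-AZA samples, and in each group the values of these genes did not overlap. Scd1 and Scd2 are close paralogs, and reads common to both can be shared out by the quantifier. Of the other paralogs, Scd3 was at or near 0 in all samples. Scd4 was low, with 0.961 and 0.542 FPKM untreated and 0.216 and 0.255 FPKM after 5-AZA, and was called lower (-1.30, adjusted p = 0.0271, limma).

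**Figure D3:**
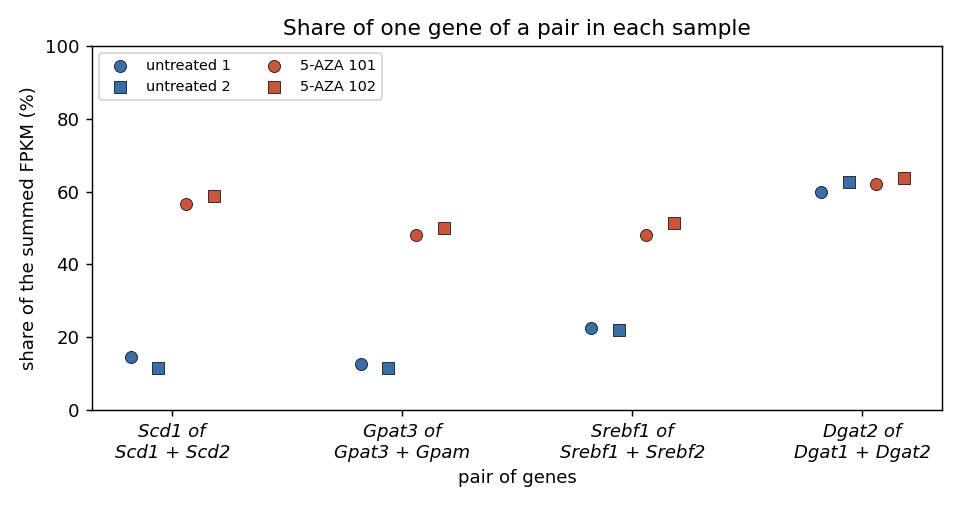
Share in percent of the summed FPKM of a pair that belonged to the named gene, by sample, with untreated samples in blue and 5-AZA samples in red. The shares of Scd1, Gpat3 and Srebf1 lie between 11.6 and 22.6% in the untreated and between 48.0 and 58.9% in the 5-AZA samples, while that of Dgat2 stays between 59.9 and 63.7%.

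In triglyceride assembly, Gpam (chr19:55067635-55127319) was at 12.1 and 11.8 FPKM untreated and at 14.6 and 18.3 FPKM after 5-AZA. It rose by 0.45 on the log2 scale (standard error 0.14, adjusted p = 0.0441, limma), the weakest of the 6 rises. With each sample left out in turn it did not pass, with adjusted p from 0.0653 to 0.161, nor with no limit on low values (0.168) or without the trend (0.136, limma). Its only curated transcript, NM_008149.3, held 4.10 to 7.87% of its level, and on that transcript alone the change was 0.14 (adjusted p = 0.840, limma).

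Of the other glycerol-3-phosphate acyltransferases, 2 were called higher. Gpat3, listed under its older symbol Agpat9, was at 1.77 and 1.55 FPKM untreated and at 13.5 and 18.3 FPKM after 5-AZA, a log2 change of 3.17 (adjusted p = 6.89e-06, limma). It was 12.8 and 11.6% of the sum of Gpat3 and Gpam in the untreated samples, 48.0% in 5-AZA replicate 101 and about as high as Gpam in replicate 102, where both were at 18.3 FPKM. Gpat2 was low, at 0.0285 and 0 FPKM untreated and 1.502 and 2.24 FPKM after 5-AZA (4.09, adjusted p = 5.22e-05, limma). Gpat4, which acts at the endoplasmic reticulum, was at 17.3, 15.3, 17.6 and 20.6 FPKM and did not pass (adjusted p = 0.255, limma).

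Dgat1 (chr15:76502012-76512021) was at 13.2 and 15.2 FPKM untreated and at 23.6 and 32.1 FPKM after 5-AZA. The groups did not overlap, and Dgat1 rose by 0.95 on the log2 scale (standard error 0.16, adjusted p = 0.00249, limma). Of its 3 transcripts NM_010046.2 held the most, 68.1 to 93.3% in each sample. Without 5-AZA replicate 101 or 102 the adjusted p of Dgat1 was 0.0669 and 0.116, with no limit on low values 0.0983 and on curated transcripts 0.0657 (limma).

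Dgat2 (chr7:99153663-99182713) was at 19.8 and 25.5 FPKM untreated and at 38.9 and 56.4 FPKM after 5-AZA. The log2 change was 1.06 (standard error 0.19, adjusted p = 0.00338, limma), a call. It was under 2-fold after median centring (0.95), after quantile normalization (0.98) and without untreated replicate 1 (0.87). The adjusted p was 0.128 with no limit on low values, 0.1003 without 5-AZA replicate 101 and 0.180 without 102 (limma).

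Dgat1 and Dgat2 encode unrelated proteins with the same reaction, and their levels moved side by side. Dgat2 was 59.9 and 62.6% of their summed FPKM untreated and 62.2 and 63.7% after 5-AZA. Of all pairs of members with Dgat1 or Dgat2, these had the closest pattern over the 4 samples, with a root mean square difference of 0.085 in log2 values after each gene was centred.

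In the order of levels, the untreated samples ran from Scd2 over Acly, Scd1, Dgat2, Acaca, Fasn, Elovl6, Dgat1 and Me1 to Gpam. The values of Dgat2 and Acaca, Elovl6 and Dgat1, Dgat1 and Me1, and Me1 and Gpam overlapped. After 5-AZA the order was Scd1, Scd2, Acly, Dgat2, Fasn, Dgat1, Me1, Acaca, Gpam and Elovl6, where neighbours from Acly to Me1 overlapped. The genes most like a called member over the 4 samples, of 10800 whose 4 samples averaged 1 FPKM or more, were Sh2d4a and Abhd15 for Scd1 (0.068 and 0.075 in the same measure), Dusp4 and Sparcl1 for Me1 (0.0093 and 0.021) and Cd68 and Gsta1 for Dgat2 (0.056 and 0.058).

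Genes around the members were read from the same fit, in which 18.6% of all tested genes rose and 5.93% fell. Of 23 tested genes of glycerolipid assembly 12 rose and 1, Plpp2, fell, with a median log2 change of 0.50. Without 5-AZA replicate 101, 7 rose, without replicate 102, 6 rose, and in either case 0 fell. Gpd1, which makes glycerol-3-phosphate, went from 2.81 and 1.98 to 66.6 and 103 FPKM and was called higher (5.07, adjusted p = 1.60e-06, limma). Agpat2, the acyltransferase that follows Gpam, went from 18.8 and 16.7 to 53.8 and 75.5 FPKM (1.84, adjusted p = 5.77e-05, limma), while Agpat1 was at 20.6, 20.9, 17.7 and 25.2 FPKM and did not pass. Bscl2, encoding seipin of the lipid droplet, rose by 1.81 (adjusted p = 3.41e-04, limma).

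Of 6 tested genes of acetyl-CoA and malonyl-CoA supply 2 rose, Thrsp (6.45, adjusted p = 1.33e-06, limma) and Acss2, the cytosolic acetyl-CoA synthetase (1.31, from 4.43 and 4.57 to 9.80 and 13.1 FPKM). Slc25a1, the mitochondrial citrate carrier, was at 26.8, 24.8, 26.2 and 34.8 FPKM and did not pass. Of 8 NADPH genes 2 rose, where 18.6% of all tested genes did. They were G6pdx of the pentose phosphate pathway (0.39, adjusted p = 0.0263, limma) and Me3, which stayed below 1 FPKM. G6pdx did not pass in any omission of 1 sample, and the list's count was 0 without untreated replicate 1 or either 5-AZA replicate and 1 without untreated replicate 2.

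Of 15 tested genes of elongation and desaturation 2 rose and 3 fell, against 18.6% and 5.93% of all tested genes. Fads1 and Fads2, the desaturases of polyunsaturated fatty acids, fell with Scd4. Fads2 went from 59.1 and 58.3 to 35.3 and 42.2 FPKM (-0.60, adjusted p = 0.00465, limma) and Fads1 changed by -0.42 (adjusted p = 0.0332, limma). Hacd1 and Fads6 rose. Without 5-AZA replicate 101, 0 genes of the list rose and 0 fell, and without replicate 102, 0 rose and 1 fell. Without untreated replicate 1 or 2, 2 rose and 1 or 2 fell, and Fads1 did not pass in any omission. Of 11 acyl-CoA synthetases 4 rose and 2 fell, and 3 to 4 rose and 0 to 1 fell with 1 sample left out. The counts that fell were 0 without untreated replicate 1 or 5-AZA replicate 102 and 1 without untreated replicate 2 or 5-AZA replicate 101. Acsbg1 (3.5025) and the transporter Slc27a1 (1.72) were called higher at low levels. Acsl1, which activates long-chain fatty acids, went from 16.0 and 15.0 to 78.9 and 108 FPKM (2.57, adjusted p = 5.89e-06, limma), and Acsl5 fell, with a change of -0.50 (adjusted p = 0.0268, limma), which was 0.29 on curated transcripts.

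The 2 SREBP genes went in opposite directions, as the desaturases did. Srebf1 was at 6.41 and 5.88 FPKM untreated and at 11.7 and 16.1 FPKM after 5-AZA, and rose, with a log2 change of 1.15 (adjusted p = 0.00129, limma). Srebf2, whose product mainly drives cholesterol genes, was at 22.0 and 20.9 against 12.7 and 15.2 FPKM, and fell by 0.62 (adjusted p = 0.00700, limma). Srebf1 was 22.6 and 21.9% of their sum in the untreated and 48.1 and 51.4% in the 5-AZA samples. Nr1h3, which encodes liver X receptor alpha, went from 0.0408 and 0.196 to 1.48 and 1.99 FPKM (3.15, adjusted p = 5.62e-04, limma). Insig1, a brake on SREBP processing, was at 58.5, 69.3, 58.7 and 73.2 FPKM, and Mlxipl, encoding ChREBP, was below 0.1 FPKM in every sample. Of 16 tested regulators 3 rose and 1 fell, near the shares of all tested genes (18.6% and 5.93%), with a median of 0.01. Without 5-AZA replicate 101, 1 rose and 0 fell, without replicate 102, 0 rose and 0 fell, and without either untreated replicate 2 rose and 1 fell.

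Of 20 genes of cholesterol synthesis and uptake 17 fell and 0 rose, against 5.93% and 18.6% of all tested genes. The median log2 change of the list was -0.78. The count that fell was 3 without 5-AZA replicate 101, 5 without replicate 102 and 8 with no limit on low values. Fdps, which makes farnesyl diphosphate, was at 115, 129, 56.8 and 67.2 FPKM (-0.98, adjusted p = 3.54e-04, limma). Msmo1 was called lower (-1.004, adjusted p = 1.28e-04, limma). Of the 10 members, which include genes of triglyceride assembly, 6 rose and 1 fell, while Acly, Acaca and Elovl6 did not pass. Fatty acid and sterol synthesis share acetyl-CoA and NADPH, and the difference between the lists was not tested.

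**Figure D4:**
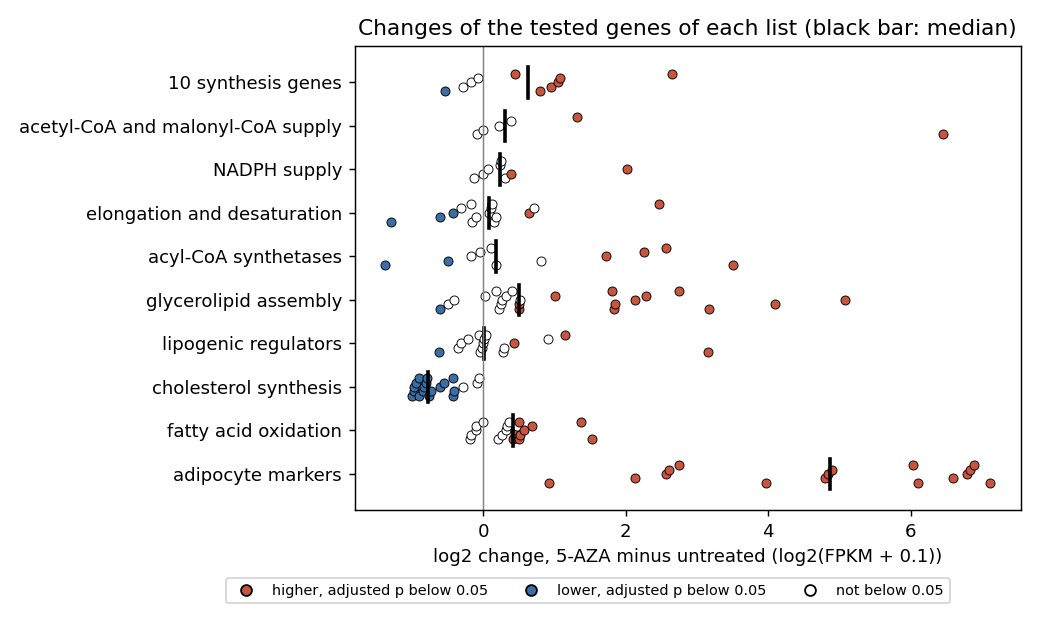
Log2 change of every tested gene of each list, 5-AZA minus untreated, with red points for genes that rose, blue points for genes that fell, white points for those that did not pass and black bars at medians. The 10 synthesis genes have a median of 0.62, cholesterol genes one of -0.78 and adipocyte markers one of 4.87.

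At the loci of the members 28 lncRNAs overlapped, of which 15 were tested and 0 called (0.984% of lncRNAs were called higher and 0.154% lower). NONMMUT034843.2, 2811 bases on the minus strand inside Scd1 (chr19:44394455-44397265), was at 0.500 and 14.5 FPKM untreated and at 128 and 134 FPKM after 5-AZA (5.47, standard error 1.57, adjusted p = 0.306, limma). It lies within the interval of Scd1, and its reads and those of the mRNA cannot be told apart here. NONMMUT062889.2 at Dgat2 was at 13.6, 9.42, 21.4 and 34.4 FPKM and did not pass (adjusted p = 0.287, limma).

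Of 4295 circRNAs, which are closed RNA loops measured as RPM, 3 came from members. circRNA_0676 of Acaca, known as mmu_circ_0000301, is 297 bases long (chr11:84193079-84195687) and was at 0.269 and 0.246 RPM untreated and at 0.0431 and 0.138 RPM after 5-AZA. Both treated values were lower, as were those of the Acaca mRNA, whose difference did not pass (adjusted p = 0.326, limma). These RPM values are low, and the read counts behind them are not given. circRNA_0675 of Acaca (0.0430 RPM) and circRNA_4099 of Me1 (0.0215 RPM) were listed in untreated replicate 1 and at 0 in the other samples, and no test was run.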

How the data were processed

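RNA-seq of 2 untreated and 2 5-AZA samples was analysed. The authors deposited FPKM values per mRNA and lncRNA transcript and RPM values per circRNA. The submitters' processing notes list Trimmomatic, HISAT2, Bowtie2 2.2.9, eXpress 1.5.1 and mm9, without roles, and the study names DESeq for its own tests. The coordinates in the tables match GRCm38: 1862 of 2131 host transcripts of circRNAs (87.4%) lay inside the GRCm38.p6 interval of their gene, and gene coordinates are those of RefSeq GRCm38.p6.

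FPKM were summed per gene, log2(FPKM + 0.1) was fitted with limma 3.58.1 (eBayes with trend) in R 4.3.3 over genes with a mean of at least 0.1 FPKM, and p-values were adjusted by Benjamini and Hochberg over all 13199 genes. Transcripts (35557 of 75959) and lncRNAs (24075) were fitted in the same way. Fold changes on this scale understate low genes. An exact permutation test of 2 samples against 2 cannot go below p = 0.333, so none was used. On simulated data of 13199 genes, 200 with a positive mean log2(FPKM + 0.1) were changed, as many up as down, with independent noise. Of genes changed by 1.5 on the log2 scale 72.1% were recovered, of those changed by 3, 93.8%, and 1.78% of calls were false. Smaller changes, as in all members but Scd1, and a difference shared by a whole library were not simulated. These shares therefore do not describe the members' calls.

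Members, gene lists and markers were chosen with earlier results of these data known. The rule named all members, up to 3 called genes in each direction of each list (largest change, no overlap, at least 1 FPKM in the higher group), up to 2 uncalled genes of highest level per list, and a few regulators and markers. Not all uncalled genes it selects are printed. Agpat1, Agpat2, Bscl2, Gpat4, G6pdx, Hacd1, Fads1, Fads2, Fads6, Cpt1a, Lias, Cdh5, Lep, Adgre1, Cd3e and Kdr were named after their values were seen. Passing at any fold was added as a rule after seeing the data. Pseudocounts, limits on low values, scalings, eBayes without trend, curated transcripts and leaving out each sample were tried.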

Additional observations from a re-analysis of the deposited data

How the results depend on the processing

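The 10 members kept the sign of their change under the 8 alternatives that used all samples. With 2 samples per group, the members' calls depended on single samples: without 5-AZA replicate 101 Scd1 and Fasn were called, and without replicate 102 no member was. With a pseudocount of 1 FPKM, 875 genes were called higher and 86 lower, with a limit of 1 FPKM 845 were higher, with no limit 83 were lower, and quantile normalization gave 1041 and 886. The median change of all genes was 0.05 as deposited, -0.12 after quantile normalization and -0.06 after median centring. Either scaling left 1 member called higher. With no limit on low values 2 members rose and 0 fell, without trend 4 rose and 0 fell, and with median centring 6 rose and 2 fell. On curated transcripts 4 rose and 1 fell, and the members' median change was 0.47.

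Of the lists, with a pseudocount of 1 FPKM 0 NADPH genes, 0 elongation and desaturation genes, 3 acyl-CoA synthetases, 6 glycerolipid genes, 0 oxidation genes and 0 cholesterol genes were called. With no limit these counts were 1 for the supply of acetyl-CoA and malonyl-CoA, 0 for NADPH, 0 for elongation, 3 for synthetases, 0 for regulators and 1 for oxidation, with 8 cholesterol genes that fell and 3 oxidation genes that rose. With a limit of 1 FPKM they were 0 for NADPH, 0 for elongation, 2 for synthetases, 6 for glycerolipids, 1 for regulators and 1 for oxidation. Quantile normalization left 0 for NADPH, 1 for elongation and 0 for oxidation and gave 6 cholesterol genes, as median centring did with 6. On curated transcripts they were 0 for NADPH, 0 for elongation, 2 for synthetases, 0 for oxidation and 3 for cholesterol, with 6 oxidation genes that rose, and without trend 3 rose. Of the members' transcripts 1 was called with a pseudocount of 0.01 FPKM, 0 with no limit and 0 without trend.

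With each sample left out in turn, 785 to 1616 genes were called higher and 50 to 181 lower. Of the members 0 to 3 were called higher, 0 to 5 rose and 0 to 1 fell, their median change was 0.42 to 0.83, and 0 of their transcripts were called in any omission. Called were 1 to 2 supply, 0 to 1 NADPH, 0 to 2 elongation, 3 to 4 synthetase, 6 to 10 glycerolipid, 0 to 2 regulator, 0 to 2 oxidation, 0 to 3 cholesterol and 8 to 16 adipocyte genes. Cholesterol genes that fell numbered 3 to 14, and oxidation genes that rose 0 to 5.

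Signs were followed for the members and the genes named by the rule only. Of these, the sign turned for Acacb (-0.52) and Pecam1 (-0.54) under quantile normalization, and for Acsl5 (0.29) and Ndufab1 (-0.97) on curated transcripts. Other list genes turned too, among them Agpat1 (0.029 in the main fit, -0.043 under quantile normalization). Insig1 became -0.067 with median centring and -0.027 with quantile normalization. Over the omissions of 1 sample, log2 changes took both signs for Acly (-0.19 to 0.035), Mbtps1 (-0.096 to 0.061), Mid1ip1 (-0.34 to 0.16), Tecr (-0.034 to 0.26), Insig1 (-0.12 to 0.20) and Lyz2 (-0.62 to 0.17). The causes were not tested. No paired analysis was possible because the groups share no replicate numbers.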

Other observations

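Genes that burn fatty acids were also measured. Of 21 genes of fatty acid oxidation 10 rose and 0 fell, against 18.6% and 5.93% of all tested genes, with a median log2 change of 0.42. Ehhadh, of peroxisomal oxidation, went from 0.527 and 0.441 to 1.48 and 1.68 FPKM (1.53, adjusted p = 0.00283, limma). Acadm, the medium-chain acyl-CoA dehydrogenase, went from 38.9 and 40.0 to 58.7 and 68.2 FPKM (0.68, adjusted p = 0.00190, limma), while Cpt1a, the liver form of the carnitine shuttle enzyme, was at 11.6, 10.4, 12.1 and 13.4 FPKM and did not pass. The count of 10 was 2 without 5-AZA replicate 101 and 0 without replicate 102.

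Mitochondria have a separate fatty acid synthesis, which makes the precursor of lipoate. Of its 8 tested genes Ndufab1, the acyl carrier protein (27.1, 23.6, 43.8 and 51.2 FPKM), and Lias, lipoic acid synthetase (4.57 and 3.69 FPKM untreated, 6.14 and 6.005 FPKM after 5-AZA), rose, by 0.90 and 0.55 on the log2 scale, and 0 fell. Ndufab1 turned sign on curated transcripts, and the other 6 did not pass. Over all tested genes 18.6% rose and 5.93% fell. Of the 8, 0 rose without 5-AZA replicate 101 or 102, without untreated replicate 1, 3 did, and without untreated replicate 2, 1 did.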
